A study of Mus musculus with 16 samples.

Results

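Class III receptor tyrosine kinases and their ligands were described in sorted mouse leukaemia cells: the receptors Kit, Flt3, Csf1r, Pdgfra and Pdgfrb and the ligands Kitl, Flt3l and Csf1. These 8 genes were chosen by name from the 55487 genes of the count table, and each name matched 1 gene. The cells carry CBFB::MYH11, the fusion oncogene made by inversion of chromosome 16 in human acute myeloid leukaemia, together with GFP. Per the design text, they were transduced with a doxycycline-inducible shRNA against MYH11 and transplanted into congenic mice, and GFP-positive cells were sorted for RNA sequencing. The 16 libraries form 5 groups. Bone marrow control (n = 3) and spleen control (n = 3) came from mice on water with 5% sucrose, and bone marrow doxycycline (n = 3) and spleen doxycycline (n = 3) from mice given doxycycline at 3 mg/ml with 5% sucrose, each for 7 days. Secondary disease (n = 4) came from the spleens of a separate cohort, labelled as treated with doxycycline, that was kept until signs of fatal disease. The labels name the shRNA only for the doxycycline and secondary disease libraries, whereas the design text gives it to all transplanted cells, and no group received doxycycline without the shRNA. Whether replicates were separate animals is not stated, and the p-values cover only the spread among libraries, which may be technical.

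As background, a class III receptor has immunoglobulin-like domains outside the cell and a kinase domain split by an insert. A dimeric ligand brings a pair of receptors together, the receptors phosphorylate each other on tyrosines, and adaptors then pass the signal to RAS and MAP kinase, PI3 kinase and STAT5. KIT, the receptor of stem cell factor (Kitl), serves haematopoietic stem and progenitor cells, early red cell precursors and mast cells. FLT3, the receptor of Flt3l, serves lymphoid and dendritic progenitors, CSF1R serves monocytes and macrophages, and the PDGF receptors mark mesenchymal and perivascular cells. KIT and FLT3 are recurrently mutated in human leukaemia with CBFB::MYH11.

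The reference sequence just upstream of Kit and Flt3l, the most abundant receptor and ligand here, is shown beside that of Flt3, a receptor at or near 0 in most libraries. Sequences are from RefSeq (GRCm38.p6), 5′ to 3′ on the gene's strand, ending at the base before the gene's start. They span chr5:75574737-75574915 (plus strand) for Kit, chr7:45136433-45136682 (minus strand) for Flt3l and chr5:147400490-147400739 (minus strand) for Flt3. Capitals mark matches on either strand. The letters searched were TGTGGT, a core bound by RUNX factors (the partners of CBFB), and its variant with TGCGGT. For GATA factors they were AGATAA, as well as the related form TGATAA. ETS factors including PU.1 were searched as GAGGAA. The GC box of general promoters was searched as GGGCGG.
Kit: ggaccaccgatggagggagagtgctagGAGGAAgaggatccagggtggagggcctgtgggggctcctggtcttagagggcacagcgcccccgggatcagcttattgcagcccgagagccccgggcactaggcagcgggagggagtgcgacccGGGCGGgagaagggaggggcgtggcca
Flt3l: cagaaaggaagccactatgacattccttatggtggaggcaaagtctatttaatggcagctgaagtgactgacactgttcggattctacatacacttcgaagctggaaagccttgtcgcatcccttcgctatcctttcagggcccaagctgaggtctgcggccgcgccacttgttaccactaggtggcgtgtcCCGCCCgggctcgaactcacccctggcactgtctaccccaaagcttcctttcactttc
Flt3: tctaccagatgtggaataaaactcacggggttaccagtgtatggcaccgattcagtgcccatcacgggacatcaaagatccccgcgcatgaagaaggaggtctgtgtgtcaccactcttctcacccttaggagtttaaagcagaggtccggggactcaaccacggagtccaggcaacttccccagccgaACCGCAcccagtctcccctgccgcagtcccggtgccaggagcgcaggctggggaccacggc
The Kit window held 1 GAGGAA and 1 GGGCGG, which do not overlap, and no RUNX or GATA match. Of 32851 RefSeq windows cut to the same length of 179 bases, 17.11% held GAGGAA and 20.89% held GGGCGG. The Flt3l window held 1 GGGCGG, on the opposite strand, as did 32.74% of windows of 250 bases. The Flt3 window held 1 TGCGGT, also on the opposite strand, as did 5.099% of windows of that length. These are letter matches and not measured sites.

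Libraries held 12.3 to 39.4 M expected counts (M, mega-counts). Secondary disease replicate 4 stood apart: it had the fewest counts, and 2404 genes reached 10 counts only in that library, against 13 to 154 such genes in each of the other 15. Results that rest on it are given with and without it. Mouse Myh11 had 0 to 9 counts in a library, and no source used here says whether reads of the fusion's MYH11 part were counted there, so it does not check the shRNA. Of the 4 blood cell markers, Spn and Cd47 carried nearly all of the summed level, which was 492 to 1089 CPM (counts scaled to a common library total with TMM factors). Ptprc (CD45) was at 1.06 to 17.3 CPM and Cd34 at 0 to 0.897 CPM. Red cell markers were present in every library, with Epor at 85.6 to 282 CPM and Klf1 at 83.4 to 359 CPM.

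Kit was the main class III receptor of these cells. On the deposited TPM scale, which divides by transcript length and so allows genes to be compared, Kit had a median of 53.6 TPM over the 15 libraries other than secondary disease replicate 4, with a range of 26.7 to 95.2 TPM. Csf1r had a median of 1.16 TPM, Flt3 of 0.08 TPM, Pdgfrb of 0.01 TPM and Pdgfra of 0 TPM over the same libraries. Kit thus made up 92.2 to 99.1% of the summed TPM of the 5 receptors in each of the 15, and 46.2% in secondary disease replicate 4.

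Among the 3 ligands, Flt3l was the abundant one. Its median was 57.0 TPM over the 15 libraries, against 0.10 TPM for Csf1 and 0.02 TPM for Kitl. Flt3l made up 98.4 to 99.9% of the ligands' summed TPM in these libraries and 90.5% in secondary disease replicate 4. The abundant receptor and the abundant ligand are therefore not partners: KIT binds the Kitl product, and the FLT3 ligand binds FLT3. Kit exceeded Flt3l in TPM in 8 of 16 libraries, with a Kit to Flt3l ratio between 0.293 and 1.66.

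**Figure D1:**
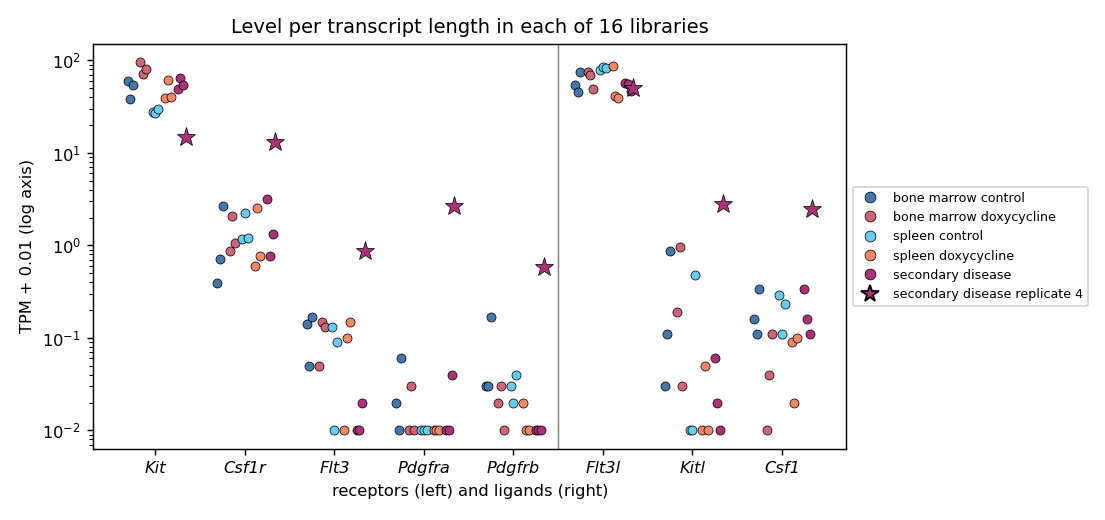
Deposited TPM of the 5 receptors (left of the grey line) and 3 ligands (right), plotted as TPM + 0.01 on a log axis; each point is 1 of 16 libraries, coloured by group, and the star is secondary disease replicate 4. Outside the star, Kit and Flt3l lie far above the other 6 genes, and for each of those 6 the star is the highest point.

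The filter on low counts left 14435 genes to test, among them Kit, Flt3, Flt3l, Csf1r and Csf1. Kitl, Pdgfra and Pdgfrb did not pass it. At an adjusted p under 0.05, edgeR called 0 of the 5 members tested in each of 6 comparisons, and 8 of the 30 member tests had an unadjusted p under 0.05, 4 of them for Kit. Over all genes, 21.9% were at that unadjusted level for bone marrow doxycycline, 12.4% for spleen doxycycline and 7.63% for the difference between tissues. The shares were 15.1% and 17.4% for secondary disease against spleen control and against spleen doxycycline, and 6.92% between the control groups. The background of called genes was 3.96% higher and 2.61% lower for bone marrow doxycycline against control, and 0.568% higher and 0.173% lower for spleen doxycycline against control. It was 0.748% higher and 1.28% lower for secondary disease against spleen control, 0.222% higher and 0.707% lower for secondary disease against spleen doxycycline, and 0.0762% higher and 0.111% lower for spleen control against bone marrow control. For the difference of the doxycycline effects between tissues, 0.0277% of genes were called higher and 0.0208% lower. The DESeq2 Wald test called 1 member higher in bone marrow doxycycline, Kit, where it called 7.67% of genes higher. It called 1 higher for secondary disease against spleen doxycycline, Csf1, where it called 2.27% higher. The comparisons of spleen doxycycline, of secondary disease and of the tissues share the 3 spleen controls and are not independent.

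Kit (ENSMUSG00000005672, chromosome 5, 75574916 to 75656722, plus strand, GRCm38) was about 2-fold higher on average with doxycycline in both tissues, without passing the test over all libraries. In bone marrow, the control libraries had 157, 101 and 127 CPM, and the doxycycline libraries had 267, 239 and 270.0 CPM. Every doxycycline library was above every control, and the groups did not overlap. The means were 128 ± 27.8 (SD, n = 3) and 259 ± 17.2 CPM (SD, n = 3), a log2 fold change of 1.01 ± 0.33 (SE) with an adjusted p = 0.0858. In spleen samples, the controls had 78.9, 62.8 and 76.6 CPM and the doxycycline libraries 103, 189 and 144 CPM. Here too the lowest doxycycline library exceeded the highest control, with a wider spread among the doxycycline libraries. This was a log2 fold change of 1.00 ± 0.33 (SE), with an adjusted p = 0.189. The difference between these effects, spleen minus bone marrow, was -0.0095 ± 0.47 on the log2 scale (adjusted p = 1.00), so neither a difference nor its absence was resolved.

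Secondary disease replicate 4 is in neither of these comparisons but enters their estimate of spread. Without it, the size of the Kit change was the same and the test passed. Kit then changed by 1.01 ± 0.20 (log2, SE) in the bone marrow, with an adjusted p = 0.00667. The spleen value was 1.00 ± 0.20, with an adjusted p = 0.0189. In that fit of 14263 genes, the background of genes called higher was 9.06% in bone marrow and 3.23% in the spleen.

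In secondary disease, 3 of 4 libraries held Kit above every spleen control. The values were 137, 163, 166 and 54.1 CPM, with replicate 4 the lowest of all 16 libraries and the other 3 close together. The log2 fold change against spleen control was 0.84 ± 0.31 (SE) with an adjusted p = 0.210. Without replicate 4 the mean was 155 ± 16.2 CPM (SD, n = 3), and the log2 fold change of 1.09 ± 0.20 passed the test (adjusted p = 0.01002) against a background of 1.14% called higher. Against spleen doxycycline, Kit differed by -0.16 ± 0.31 (adjusted p = 0.840) and by 0.093 ± 0.20 without replicate 4 (adjusted p = 0.839).

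Between the control groups, Kit was lower in the spleen than in the bone marrow in every library. The fitted log2 difference was -0.82 ± 0.33 with an adjusted p = 0.565, and -0.82 ± 0.20 with an adjusted p = 0.0632 without secondary disease replicate 4. By group mean, Kit ran from bone marrow doxycycline through spleen doxycycline (146 ± 43.1 CPM, SD, n = 3), secondary disease (130 ± 52.3 CPM, SD, n = 4) and bone marrow control to spleen control (72.7 ± 8.72 CPM, SD, n = 3). The ranges of spleen doxycycline, secondary disease and bone marrow control overlap each other. Bone marrow doxycycline overlaps with none of the other groups, and spleen control overlaps only with secondary disease, through replicate 4.

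**Figure D2:**
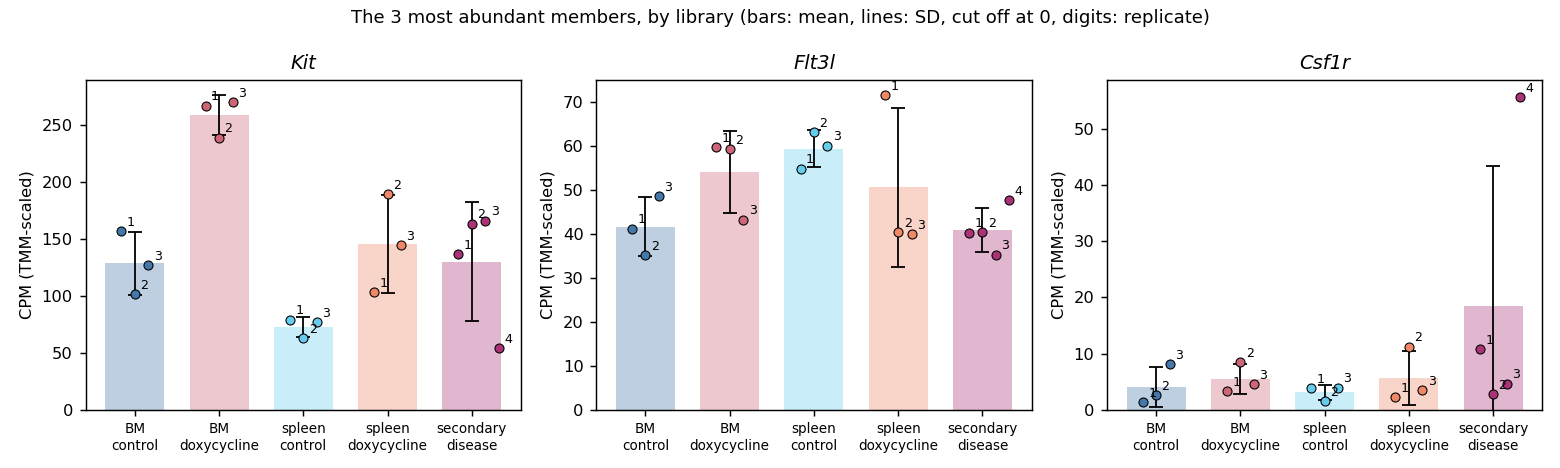
Kit, Flt3l and Csf1r in TMM-scaled CPM by group; points are libraries with their replicate number, bars the group mean and lines the SD, cut off at 0. Kit lies at 239 to 270.0 CPM in bone marrow doxycycline and at 62.8 to 78.9 CPM in spleen control, and replicate 4 of secondary disease stands apart for Kit and Csf1r.

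**Figure D3:**
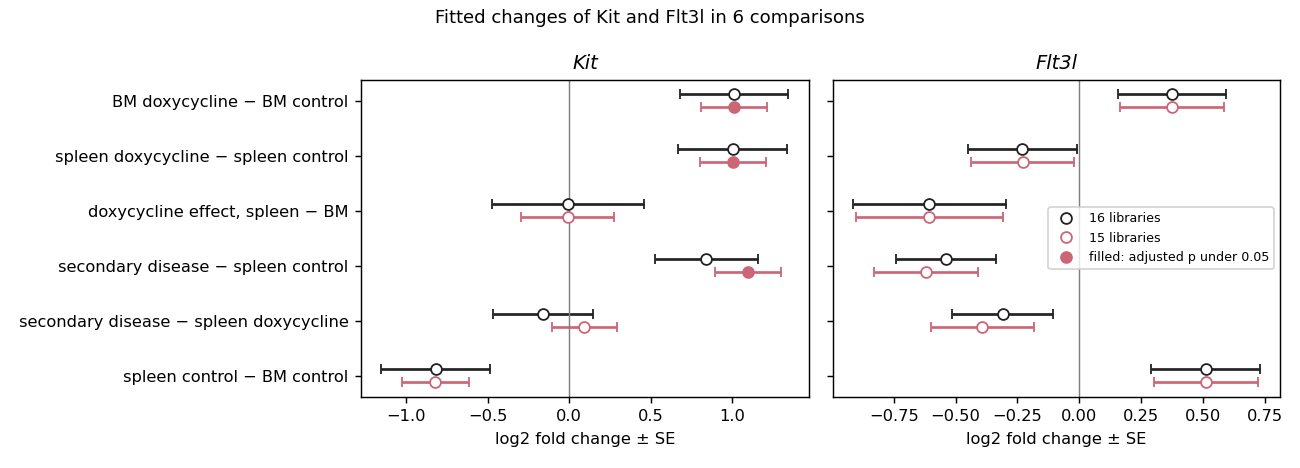
Fitted log2 fold change ± SE of Kit (left) and Flt3l (right) in 6 comparisons, over 16 libraries (black) and over the 15 without secondary disease replicate 4 (red); filled points have an adjusted p under 0.05. The Kit estimates of both doxycycline comparisons sit near 1 in both fits, and only the fit over 15 libraries has filled points.

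Red cell markers moved with Kit in part of the libraries. The summed level of 7 erythroid markers was 1662 to 2946 CPM in bone marrow control and 29166 to 36017 CPM in bone marrow doxycycline. In the spleen it was 2079 to 3400 CPM in the controls, and 3829, 52076 and 23018 CPM in doxycycline replicates 1, 2 and 3. The order of these 3 libraries is the same for Kit, with 103, 189 and 144 CPM. In secondary disease the erythroid sum was 2600, 3940, 4145 and 3674 CPM in replicates 1 to 4, where Kit was at 137, 163, 166 and 54.1 CPM. Replicates 2 to 4 were above every spleen control in the erythroid sum, and replicate 1 was within their range. None of the 7 markers was at 0 in a whole group. The globin genes Hbb-bs and Hba-a1 carried most of the sum, with means of 16782 and 13479 CPM in bone marrow doxycycline. In these bulk samples, a larger share of cells of a type and more RNA per cell cannot be told apart, and the part of the erythroid level in the Kit values was not tested.

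Mast cells carry KIT. The summed level of 9 mast cell and basophil markers was 790 to 952 CPM in bone marrow control and 778 to 942 CPM in bone marrow doxycycline, overlapping where Kit did not. Its members differed: Cpa3, a mast cell protease, was at 79.5, 61.7 and 37.5 CPM in those controls and 28.1, 14.2 and 28.7 CPM with doxycycline. Hdc, which makes histamine, was at 253, 255 and 253 CPM and at 364, 259 and 437 CPM. The marker Fcer1a was at 3.88 to 7.02 CPM in those controls and at 0.197 to 0.469 CPM with doxycycline. In spleen doxycycline the sum of the 9 markers was 1058, 154 and 1769 CPM in replicates 1, 2 and 3, and the library with the highest Kit had the lowest sum. The sum was 1098 to 1812 CPM in secondary disease and 1039 to 1122 CPM in spleen control. Ms4a2, the beta chain of the IgE receptor, was at 99.8 to 1131 CPM, whereas Mcpt8, a basophil protease, was at 0 to 0.700 CPM. By group mean, Ms4a2 and Hdc carried most of the sum of the 9 markers. Depending on the group, 1 to 3 of the 9 were at 0 in all its libraries. Neutrophil markers, 8 in number, summed to 852 to 1282 CPM in bone marrow control, 312 to 624 CPM in bone marrow doxycycline and 48.1 to 155 CPM in spleen control, with no overlap between these groups. They summed to 15.7 to 151 CPM in spleen doxycycline and 2.30 to 67.6 CPM in secondary disease. The part of these cells in the Kit values was not tested.

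**Figure D4:**
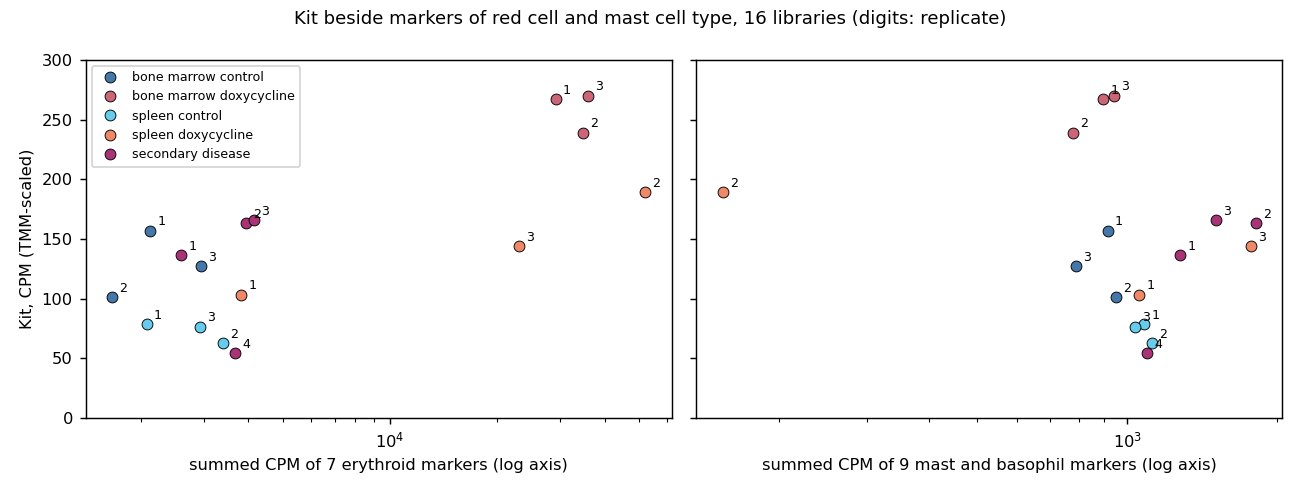
Kit (CPM, linear axis) against the summed CPM of 7 erythroid markers (left) and of 9 mast and basophil markers (right), both on log axes; each point is a library labelled with its replicate number. Bone marrow doxycycline and spleen doxycycline replicates 2 and 3 lie at the high end of the erythroid axis, and spleen doxycycline replicate 2 lies alone at 154 CPM on the mast and basophil axis.

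Kit has neighbours of related kind on chromosome 5. Pdgfra ends 376.7 kb before Kit, and Kdr, which encodes a VEGF receptor of endothelium, lies 276.1 kb beyond it on the other strand. Pdgfra was at 0 to 5 counts in 15 libraries. Kdr was detected in every library. Its level was 49.2, 58.4 and 93.7 CPM in bone marrow control and 39.6, 48.0 and 37.8 CPM in bone marrow doxycycline, below every control, where Kit was above. Other endothelial markers were low, with Pecam1 at 0.0963 to 2.06 CPM.

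Flt3l (ENSMUSG00000110206, chromosome 7, 45129788 to 45136432, minus strand, GRCm38), the ligand of FLT3, had group means between 40.9 and 59.4 CPM. It had 41.2, 35.2 and 48.6 CPM in bone marrow control and 59.7, 59.2 and 43.2 CPM in bone marrow doxycycline. Spleen control had 54.8, 63.2 and 60.1 CPM, and spleen doxycycline had 71.5, 40.4 and 40.0 CPM. Secondary disease had 40.3, 40.4, 35.2 and 47.7 CPM, and here replicate 4 was close to the others. The doxycycline libraries overlapped with their controls in both tissues, whereas every secondary disease library was below every spleen control and every spleen control above every bone marrow control. With doxycycline, Flt3l differed by 0.38 ± 0.22 (log2, SE) in the bone marrow (adjusted p = 0.358) and by -0.23 ± 0.22 in spleen cells (adjusted p = 0.765). The difference of these effects, spleen minus bone marrow, was -0.61 ± 0.31 (adjusted p = 0.708). For secondary disease against spleen control it was -0.54 ± 0.20 (adjusted p = 0.213), and for spleen control against bone marrow control 0.51 ± 0.22 (adjusted p = 0.623). None of these passed the test, and none did without secondary disease replicate 4.

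The annotation limits what Flt3l counts mean. Flt3l overlaps the predicted protein-coding gene Gm45713 on the same strand over 6444 bases, so the split of reads between them is uncertain. Gm45713 had 3.41 to 7.77 CPM. The ribosomal protein gene Rpl13a, which lies beyond Flt3l on that strand and overlaps Gm45713, had 2436 to 4771 CPM.

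Csf1r (ENSMUSG00000024621, chromosome 18, 61100598 to 61132149, plus strand, GRCm38), the receptor that monocytes and macrophages need, was low in all but 1 library. It had 1.38, 2.60 and 8.12 CPM in bone marrow control and 3.27, 8.46 and 4.57 CPM in bone marrow doxycycline. It had 3.798, 1.56 and 3.91 CPM in spleen control, and 2.27, 11.2 and 3.52 CPM in spleen doxycycline. Secondary disease had 10.8, 2.71, 4.63 and 55.6 CPM, with replicate 4 several times above every other library and the remaining values overlapping between groups. The log2 fold change for secondary disease against spleen control was 2.57 ± 1.00 (adjusted p = 0.230), and 0.96 ± 0.75 without replicate 4 (adjusted p = 0.669). For doxycycline, values of 0.43 ± 0.99 in the bone marrow (adjusted p = 0.868) and of 0.88 ± 0.99 in spleen cells (adjusted p = 0.812) were fitted.

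Of 14 monocyte and macrophage markers, 8 were highest in the same library and 6 elsewhere. Their summed level was 123 CPM in secondary disease replicate 4 and 14.3 to 60.1 CPM in the other 15 libraries. None was at 0 in a whole group, and C1qa, a complement gene of macrophages, was at 30.3 CPM in replicate 4, C1qc at 23.2 CPM and Cx3cr1 at 19.8 CPM. Ly6c2, a marker of inflammatory monocytes, was at 1.39 CPM there and at 14.8, 13.4 and 17.3 CPM in bone marrow control. The 3 prime end of Csf1r overlaps Hmgxb3 on the opposite strand over 873 bases. Hmgxb3 had 37.3 to 65.7 CPM, and since the strand of the counting is not stated, reads in the overlap cannot be told apart. The part of macrophage RNA and of this overlap in the Csf1r values was not tested.

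The other receptors were at the limit of detection. Flt3 (ENSMUSG00000042817, chromosome 5, 147330741 to 147400489, minus strand, GRCm38) had 9, 3 and 9 counts in the bone marrow controls and 3, 12 and 10 with doxycycline. The spleen controls had 7, 0 and 8 counts and the spleen doxycycline libraries 0, 8 and 11. It had 0, 0 and 1 counts in secondary disease replicates 1 to 3 and 35 in replicate 4. All groups overlapped, but secondary disease overlapped with the bone marrow groups only through replicate 4. The log2 fold change for secondary disease against spleen control was 2.04 ± 1.70 with replicate 4 (adjusted p = 0.662). It turned to -3.28 ± 1.59 without that library (adjusted p = 0.381). Pdgfra had 0 counts in 11 libraries and at most 5 in the other 4 of the 15, but 200 counts (17.3 CPM) in secondary disease replicate 4. Pdgfrb had 0 to 14 counts in 15 libraries and 35 in replicate 4. A count of 0 allows up to 3 counts, which is 0.0737 to 0.260 CPM depending on the library, for counting error only.

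The partner ligands of KIT and CSF1R were also scarce. Kitl, which stromal and endothelial niche cells are known to supply, had 0 to 12 counts in 15 libraries and 71 in secondary disease replicate 4. Csf1 (ENSMUSG00000014599, chromosome 3, 107741048 to 107760469, minus strand, GRCm38), the ligand of CSF1R, had 9, 8 and 18 counts in the bone marrow controls and 0, 2 and 3 with doxycycline. These groups did not overlap, and the log2 fold change of -2.77 ± 1.41 did not pass (adjusted p = 0.276, or 0.0523 without secondary disease replicate 4). Csf1 had 13, 6 and 18 counts in spleen control, 6, 1 and 8 in spleen doxycycline and 18, 10, 4 and 100 in secondary disease. Without replicate 4, secondary disease against spleen control gave a log2 fold change of 0.016 ± 0.74, against 2.51 ± 1.20 with it (adjusted p = 0.996 and 0.345).

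Secondary disease replicate 4 held a large part of all reads of the low members in the series. It gave 95.7% of the Pdgfra counts of all 16 libraries, 62.3% of those of Kitl, 54.7% of Pdgfrb, 44.6% of Csf1, 30.2% of Flt3 and 25.5% of Csf1r. The shares of Kit and Flt3l were 1.06% and 2.75%. These are shares of raw counts, and replicate 4 held 12.3 M of them in all, against 21.8 to 39.4 M in each other library. On the CPM scale, its Flt3l (47.7) lay inside the 35.2 to 71.5 of the other 15, and its Kit (54.1) below their 62.8 to 270.0. Beside Cxcl12, which was at 22.2 to 204 CPM in all libraries, the 9 other stromal and perivascular markers summed to 27.0 CPM in this library and to 0.176 to 8.65 CPM in the other 15. The part of stromal RNA in these values was not tested.

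Of the 5 further ligands listed for these receptors, only Pdgfb and Pdgfc passed the filter, and Pdgfc was called in no comparison. Pdgfb encodes the B chain of PDGF, which activates both PDGF receptors and is made by megakaryocytes and endothelium. In bone marrow it fell with doxycycline. The control libraries had 32.6, 39.3 and 44.4 CPM, and the doxycycline libraries had 3.50, 5.56 and 4.74 CPM, all far below the controls. This was a log2 fold change of -3.07 ± 0.81 (adjusted p = 0.0375). In spleen doxycycline it was at 36.8, 0.678 and 19.0 CPM, on both sides of the controls at 15.2, 19.8 and 21.1 CPM. There it changed by 0.011 ± 0.74 on the log2 scale (adjusted p = 0.998), and the difference of the effects between tissues did not pass (3.08 ± 1.08, adjusted p = 0.427). The bone marrow call was lost in each of 6 refits with 1 library of either group left out (adjusted p = 0.0928 to 0.145), and with no filter (0.1003). This call held in 5 of 12 alternatives, among them the fit without secondary disease replicate 4. Its log2 fold change was -3.23 to -2.94 over all alternatives. Pdgfa and Il34, a further ligand of CSF1R, had 6.94 and 12.3 CPM in secondary disease replicate 4 and at most 0.0852 and 0.0408 CPM elsewhere.

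Of 25 negative regulators of receptor kinase signalling, 22 were tested, and Spred1 was the one called in 3 comparisons. The list had 1 gene called lower in bone marrow doxycycline, 2 in spleen doxycycline and 2 in secondary disease against spleen control. Over all genes, 2.61%, 0.173% and 1.28% were called lower in these. Spred1 encodes a membrane protein that restrains RAS through NF1, and it fell with doxycycline in both tissues and in secondary disease. It had 48.3, 56.1 and 63.7 CPM in bone marrow control and 27.0, 30.8 and 26.9 CPM in bone marrow doxycycline (log2 fold change -0.99 ± 0.23, adjusted p = 0.0240). It had 100.1, 85.2 and 87.2 CPM in spleen control, and 61.1, 26.9 and 40.6 CPM in spleen doxycycline (-1.08 ± 0.23, adjusted p = 0.0488). Secondary disease had 47.7, 50.1, 50.05 and 38.5 CPM (-0.96 ± 0.21 against spleen control, adjusted p = 0.0321). In each comparison all treated libraries lay below all controls, so Spred1 was low where most Kit values were high. Nf1 itself was called in no comparison. It was at 6.73 to 8.32 CPM in bone marrow control and 18.5 to 24.0 CPM in bone marrow doxycycline. In spleen control it was at 4.60 to 5.59 CPM, in spleen doxycycline at 3.34 to 24.7 CPM and in secondary disease at 8.67 to 16.3 CPM. The Spred1 calls were near the threshold: leaving out 1 library of the comparison at a time gave adjusted p = 0.0638 to 0.0975 in bone marrow. In such refits the call in the spleen held only without spleen doxycycline replicate 1 (adjusted p = 0.000561, otherwise up to 0.281). The call in secondary disease held only without replicate 4 (0.0384, otherwise up to 0.166). With no filter, Spred1 missed the threshold in all 3 (adjusted p = 0.0550, 0.116 and 0.0787), and with only the groups compared it missed it in the spleen (0.401). Counting all alternatives, the calls held in 5 of 12 in bone marrow, 5 of 12 in the spleen and 4 of 12 in secondary disease. The fit without secondary disease replicate 4 kept all 3.

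Socs1, a feedback inhibitor of cytokine receptor and JAK signalling, fell in the 2 comparisons against spleen control. Spleen control had 33.2, 34.8 and 33.9 CPM, spleen doxycycline 16.4, 3.63 and 6.16 CPM, and secondary disease 8.86, 8.99, 7.30 and 8.41 CPM. No treated library reached the spleen controls. The log2 fold changes were -1.95 ± 0.40 (adjusted p = 0.0451) and -2.02 ± 0.36 (adjusted p = 0.0118). In bone marrow, Socs1 was at 9.10, 6.22 and 9.25 CPM in the controls, near the treated spleen libraries, and at 10.1, 12.01 and 13.1 CPM with doxycycline (0.52 ± 0.39, adjusted p = 0.501). The difference of the doxycycline effects between tissues did not pass (-2.47 ± 0.55, adjusted p = 0.137). With 1 library of the comparison left out, the spleen doxycycline call held only when replicate 1 of that group was out. That call was also lost with no filter (adjusted p = 0.0962) and with only the groups compared (0.401). It held in 5 of 12 alternatives, among them the fit without secondary disease replicate 4. The secondary disease call was lost in 2 of 7 refits without 1 library of that comparison, with adjusted p up to 0.0613.

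**Figure D5:**
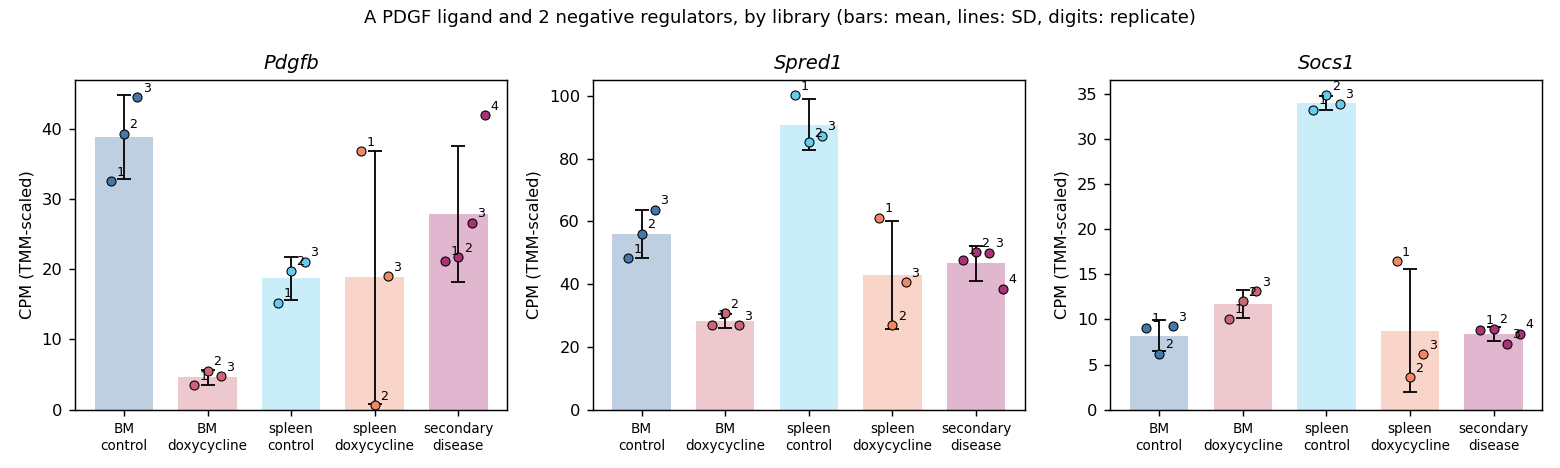
Pdgfb, Spred1 and Socs1 in TMM-scaled CPM by group; points are libraries with their replicate number, bars the mean and lines the SD, cut off at 0. Pdgfb is at 3.50 to 5.56 CPM in bone marrow doxycycline, Spred1 is below its controls in every treated library, and Socs1 is at 33.2 to 34.8 CPM in spleen control and at most 16.4 CPM elsewhere.

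Against spleen doxycycline, secondary disease had 1 of the 22 negative regulators higher and 1 lower. Over all genes, 0.222% were called higher and 0.707% lower. Cblb, a ubiquitin ligase that marks activated receptors for removal, rose by 0.73 ± 0.15 on the log2 scale (adjusted p = 0.0419), and its values in secondary disease were 23.8, 19.0, 21.2 and 23.9 CPM against 15.1, 10.8 and 13.8 CPM. Socs3, another feedback inhibitor, fell by 2.60 ± 0.57 (adjusted p = 0.0485) from 1.51, 7.38 and 2.13 CPM to 0.497, 0.742, 0.937 and 0.173 CPM. The groups did not overlap for either gene, and each call was lost in 4 of 7 refits without 1 library (adjusted p up to 0.138 and 0.256). Both calls were also lost with no filter (adjusted p = 0.118 for Cblb and 0.135 for Socs3) and with only the groups compared (0.887 for both), and Socs3 reached 0.0501 with DESeq2 size factors. The median log2 fold change of the 22 negative regulators was -0.27 with doxycycline in the bone marrow and -0.28 in spleen cells, beside -0.025 and 0.025 for all genes tested. It was -0.037 for secondary disease against spleen control and 0.21 against spleen doxycycline, beside 0.016 and -0.0071 for all genes.

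Of 38 adaptors and effectors, all of them tested, 1 was called higher in bone marrow doxycycline and 2 lower in secondary disease against spleen control. Over all genes, 3.96% were called higher in the former and 1.28% lower in the latter. In the other comparisons 0 of the 38 were called. Akt2, a kinase downstream of PI3 kinase, rose with doxycycline in bone marrow, from 77.9, 65.0 and 78.0 CPM to 126, 130.2 and 132 CPM (0.81 ± 0.21, adjusted p = 0.0367). The 37 others did not pass there, and none of the 38 passed in the spleen. In secondary disease against spleen control, Gab2, a docking protein that links KIT to PI3 kinase, fell. It went from 202, 201 and 208 CPM to 76.4, 112, 112 and 46.8 CPM (-1.23 ± 0.29, adjusted p = 0.0446), and of 7 refits without 1 library the call held only without secondary disease replicate 4. That call was also lost with no filter (adjusted p = 0.115) and with only the groups compared (0.0853). Gab2 was at 83.9 to 102 CPM in spleen doxycycline, 49.4 to 115 CPM in bone marrow control and 134 to 160 CPM in bone marrow doxycycline. Spleen control thus lay above every library of the other groups. The call of Akt2 was lost in each of 6 refits without 1 library of the comparison (adjusted p = 0.0965 to 0.166) and with no filter (0.0784). The Akt2 call held in 5 of 12 alternatives, among them the fit without secondary disease replicate 4. The median log2 fold change of the list was -0.024 with doxycycline in the bone marrow, -0.16 in spleen cells and 0.024 for secondary disease against spleen control, beside -0.025, 0.025 and 0.016 for all genes.

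Of 17 transcription factors known at the promoters of these receptors and ligands, 16 were tested, and 2 rose, both in bone marrow doxycycline. Of all genes, 3.96% were called higher there. Gata2, a factor of stem, progenitor and mast cells that is known to drive Kit, had 264, 235 and 293 CPM in control and 577, 844 and 616 CPM with doxycycline (1.36 ± 0.32, adjusted p = 0.0249). Gata1, the factor that replaces GATA2 as red cells mature, had 323, 265 and 300.2 CPM in control and 417, 438 and 498 CPM with doxycycline (0.61 ± 0.14, adjusted p = 0.0246). Every doxycycline library was above every control for both. In the spleen, Gata2 was at 417, 119 and 290 CPM with doxycycline and at 265, 262 and 265 CPM in control, and the library with the highest Kit, replicate 2, had the lowest Gata2. The differences of the effects between tissues did not pass (adjusted p = 0.410 for Gata2 and 0.276 for Gata1). Each bone marrow call was lost when any 1 library of the comparison was left out (adjusted p = 0.0669 to 0.121 for Gata2 and 0.0718 to 0.139 for Gata1), and with no filter (0.0545 and 0.107). Both calls held in 5 of 12 alternatives, among them the fit without secondary disease replicate 4. The other 14 factors did not pass in bone marrow, where the median of the list was -0.46 beside -0.025 for all genes.

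Across all 16 libraries, the genes whose log2 CPM followed Kit most closely, among 8688 tested genes whose mean log2 CPM was 3 or more, were Acss2 (Pearson r = 0.948), Casp6 (0.925) and Mif4gd (0.925). Without secondary disease replicate 4 they were Mta3 (0.943), Acss2 (0.942) and Glul (0.939). For Flt3l they were Sirt6 (0.855), Tgfb1i1 (0.842) and Pbxip1 (0.836), and without that library Trim11 (0.936), Sirt6 (0.868) and Spns1 (0.865). For Csf1r they were Trf (0.922), Ncoa1 (0.901) and Lrp1 (0.898), and Trf remained first without it (0.856). The points share libraries, depth and group, so these values are a description.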

How the data were processed

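RNA of GFP-sorted cells was sequenced in 16 libraries after oligo-dT enrichment with the NEBNext Ultra II RNA kit, per the labels' protocols. Per the submitters' processing notes, the tools were STAR, RSEM, Trim Galore, FastQC and MultiQC (no versions given) and the build was GRCm38. The authors deposited 1 table of expected counts per gene, in which 5.80 to 10.8% of a library's values are not whole, and 1 TPM file per library. Each of the 16 TPM files matched its own column best (lowest r = 0.940 of gene-centred log2 values), and 0 columns had no library. TPM was used only to compare levels between genes.

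Expected counts were rounded and tested with edgeR 4.0.16 (R 4.3.3, limma 3.58.1; filterByExpr, TMM, robust quasi-likelihood test, two-sided) in 1 model of all 16 libraries with a mean per group. P-values were Benjamini-Hochberg adjusted over every gene in the fit, and a gene was called under 0.05. The SE is the size of the log2 fold change divided by the root of its F statistic. Replicates differed by more than sampling noise (chi-square per degree of freedom at least 8.06). The steps were tested on simulated counts. Totals of 12.3 to 39.4 M counts limit low genes, and the floor is 3 counts per library.

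The members, lists and tests were chosen with earlier results of these data known. All 8 members were named, with up to 4 called genes of smallest p per list and comparison, the neighbour Kdr, and for members at a mean log2 CPM of 3 or more the 3 genes of highest Pearson r. Marker genes printed singly, Il34, Pdgfa, Pdgfc, Nf1 and the overlapping genes were chosen after their values were seen. Some genes of the lists are not reported here. Alternatives were DESeq2 size factors, no filter, the DESeq2 1.42.0 Wald test, a replicate block, only the groups compared and leaving out libraries. Applying them to the named genes outside the members, and likeness without secondary disease replicate 4, were added after the data were seen. Gene positions and overlaps are from GENCODE M21 (GRCm38).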

Additional observations from a re-analysis of the deposited data

Results flagged for a closer look

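In secondary disease, replicate 4 was far above the other 3 libraries for 6 of the 8 members, by a gap to the nearest library that exceeded Dixon's critical share of the range for 4 samples. Its level was 17.3 CPM for Pdgfra, 3.04 CPM for Pdgfrb, 3.04 CPM for Flt3, 55.6 CPM for Csf1r, 6.16 CPM for Kitl and 8.67 CPM for Csf1. About 1 in 20 groups is singled out in this way by chance, and the 6 values come from 1 library, so they are not independent. Kit and Flt3l were not among them.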

How the results depend on the processing

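Over 30 member results and 382 alternatives, 344 kept direction and side of the threshold, 11 newly passed and 27 reversed. No member result passed in the main fit, so no pass could be lost. Kit passed in 4 of 12 alternatives in bone marrow (replicate block, only the groups compared, DESeq2, without secondary disease replicate 4), and in 2 of 12 each for spleen doxycycline and for secondary disease against spleen control (the block and without that library). Each of these settings gave 1 member called, and only the groups compared gave 2, Kit and Flt3l, for spleen control against bone marrow control. DESeq2 gave 1, Csf1, for secondary disease against spleen doxycycline, in a fit that included secondary disease replicate 4. With 1 library of the comparison left out, members called ranged from 0 to 1 for secondary disease against spleen control.

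Genes called moved more. For bone marrow doxycycline, 949 became 349 without the filter, 1966 with the block, 4929 with only the groups compared, 1996 with DESeq2, 2428 without secondary disease replicate 4 and 23 to 232 with 1 library out. For spleen doxycycline, 107 became 10, 374, 1, 715, 766 and 0 to 1364 under the same settings, and for the difference between tissues 7 became 2, 39, 23, 250, 105 and 0 to 645. For spleen control against bone marrow control, 27 became 7, 117, 1927, 304, 190 and 0 to 12. For secondary disease against spleen control, 293 became 134 without the filter, 756 with DESeq2 and 61 to 523 with 1 library out. Against spleen doxycycline, 134 became 26 without the filter, 347 with the block, 0 with only the groups compared, 866 with DESeq2 and 0 to 1336. A single library left out leaves fewer samples; otherwise the cause was not tested.

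All reversed values were of member results that did not pass the test. With 1 library out, Flt3 ran from -0.24 to 0.53 (bone marrow doxycycline), -0.12 to 1.30 (spleen doxycycline), -0.31 to 1.11 (difference between tissues), -3.28 to 2.61 (secondary disease against spleen control) and -3.89 to 2.16 (against spleen doxycycline). With the block, the last 2 were -3.31 and -3.86. Csf1r ran from -0.037 to 1.42, -0.088 to 1.25 and -0.55 to 0.91 in the first 3 of these, and from -0.78 to 0.62 between the control groups, where Csf1 ran from -0.41 to 0.37. Kit ran from -0.24 to 0.19 for the difference between tissues and from -0.36 to 0.093 for secondary disease against spleen doxycycline (0.092 with the block), and Flt3l in the latter from -0.46 to 0.022.

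Replicate numbers gave little sign of pairing: 5 of 30 same-numbered pairs had deviations correlated above 0.1 (-0.27 to 0.16). With so few libraries per group, this cannot show that same-numbered samples are unpaired. With the block, the calls of Spred1 and Gab2 for secondary disease against spleen control (adjusted p = 0.0680 and 0.0737) and of Socs3 against spleen doxycycline (0.0517) were lost. In the block, secondary disease replicate 4 has a level of its own, so that fit also sets it aside.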
